A study of Mus musculus with 25 samples.

Results

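The comparison described here set hepatocytes in which Cre was to delete the genes of the Hippo kinases LATS1 and LATS2 against hepatocytes of BL/6 mice, with the same Cre-carrying virus on both sides. Its members are 6 of the 25 libraries of the series, taken by their labels: 3 Lats1/2 KO libraries and 3 BL/6 AAV-Cre libraries. The knockout mice had loxP-flanked alleles of both genes (Lats1flox/flox; Lats2flox/flox) and were killed 1 week after tail vein injection of adeno-associated virus serotype 8 with Cre recombinase under TBG, a promoter active in hepatocytes. The control mice were C57BL/6 with intact Lats1 and Lats2 and received the same kind of virus 24 hours before. Genotype, strain and time after the virus therefore differ together between the 2 groups and cannot be told apart in a direct comparison. Where a value from outside these libraries is set beside them, it comes from the untreated floxed mice (Lats1/2 flox ctrl, n = 4) or untreated C57BL/6 mice (BL/6 ctrl, n = 4). The other libraries come from mice with a doxycycline-driven YAP transgene (ApoYap ctrl, n = 4, and ApoYap Dox, n = 3) and from BL/6 mice on doxycycline (BL/6 Dox, n = 4), and enter the estimate of the spread, with values given for 2 genes only. Cre deletes the floxed genes in hepatocytes only as far as the virus reaches them, and cells without the promoter's activity keep both genes. RNA came from 500000 sorted cells per sample of a collagenase-perfused liver. The labels name neither the gates of the sort nor age, sex or sequencing batch, nor do they say whether replicates are separate animals, so p-values measure only the spread between these samples.

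In the Hippo pathway a chain of kinases ends in LATS1 and LATS2, which phosphorylate the coactivators YAP and TAZ and so keep them out of the nucleus. Without that brake YAP and TAZ bind TEAD factors on DNA and switch on genes of growth, matrix and cytoskeleton. In liver the pathway is known for its control of organ size, of hepatocyte division and of the identity of hepatocytes against that of bile duct cells.

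Of 12970 genes with enough counts to be tested, among 37117 in the table, 2544 were higher and 2039 lower in the knockout libraries, at a Benjamini-Hochberg adjusted p under 0.05 in edgeR's quasi-likelihood test. These calls are 35.3% of the genes tested, 19.6% higher and 15.7% lower, and the gene lists that follow are read against these shares. The 3 knockout libraries all lay above the 3 virus-treated BL/6 libraries for 24.9% of the genes and all below them for 22.6%. With library totals as the only scaling, in place of TMM, the median log2 fold change of all genes moved from 0.01 to 0.41 and the calls to 5040 higher and 657 lower. Directions in the text are therefore relative to the typical gene. Without Lats1/2 KO 2 the calls numbered 1710 higher and 1255 lower. For every gene called and given with its CPM values in the text, the 3 knockout values lay outside the range of the 3 virus-treated BL/6 values, except Klf6 and Cxcl1. The few members that went against their list are named after their values were seen.

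Promoters are shown for genes of the YAP target and mitosis lists, which carried some of the largest rises. RefSeq promoters (GRCm38.p6, 250 bases before to 50 after the start of transcription) were matched by symbol for 9999 of the genes tested. The letters GGAATG, the core of the element that TEAD factors bind, were searched on both strands. They stood in 14.7% of all 32851 promoters, in 14.5% of those of the genes tested and in 8 of 16 matched genes of a list of YAP and TAZ targets. Ccn1, Amotl2 and Crim1, whose counts rose, are printed here with the element in capitals, from chr3:145649936-145650235, minus strand for Ccn1, chr9:102717554-102717853, plus strand for Amotl2 and chr17:78199998-78200297, plus strand for Crim1.
Ccn1: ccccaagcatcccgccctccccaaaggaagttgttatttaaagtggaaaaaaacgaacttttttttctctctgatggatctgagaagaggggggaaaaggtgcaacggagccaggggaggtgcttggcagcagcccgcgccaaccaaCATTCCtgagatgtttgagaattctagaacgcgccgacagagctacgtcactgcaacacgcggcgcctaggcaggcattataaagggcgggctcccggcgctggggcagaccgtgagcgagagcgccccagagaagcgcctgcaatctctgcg
Amotl2: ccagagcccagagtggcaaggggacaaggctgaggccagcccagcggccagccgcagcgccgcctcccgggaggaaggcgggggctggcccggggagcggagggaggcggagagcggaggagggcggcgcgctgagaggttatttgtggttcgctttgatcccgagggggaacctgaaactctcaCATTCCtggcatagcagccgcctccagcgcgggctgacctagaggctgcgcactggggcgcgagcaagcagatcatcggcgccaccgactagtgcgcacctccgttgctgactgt
Crim1: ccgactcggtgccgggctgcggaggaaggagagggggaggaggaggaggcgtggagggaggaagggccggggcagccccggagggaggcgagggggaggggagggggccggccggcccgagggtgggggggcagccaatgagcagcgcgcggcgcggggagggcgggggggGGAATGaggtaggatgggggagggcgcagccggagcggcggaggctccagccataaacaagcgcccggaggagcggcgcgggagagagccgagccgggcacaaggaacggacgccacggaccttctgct
In Ccn1 and Amotl2 the capitals read CATTCC because the element lies on the other strand, 103 and 65 bases before the start, and in Crim1 it lies 79 bases before it.

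A second kind of promoter belongs to genes of mitosis, which carry the cell cycle homology element TTTGAA, bound by the DREAM and MuvB complexes, and CCAAT boxes bound by NF-Y. Searched on both strands, TTTGAA stood in 17.9% of all promoters, in 14.9% of those of the genes tested, and in 25 of 32 matched genes of a list of G2/M and mitosis genes. It stood in 3 of 28 matched genes of S phase. CCAAT stood in 37.4% of all promoters, in 43% of those of the genes tested in 25 of the 32 mitotic ones and in 18 of the 28 of S phase. Printed with TTTGAA and CCAAT in capitals, and chosen after their values were seen, are Plk1, the mitotic kinase (chr7:122159185-122159484, plus strand), Ccnb2, a mitotic cyclin (chr9:70421505-70421804, minus strand), and Cdc20, an activator of the anaphase-promoting complex (chr4:118437294-118437593, minus strand).
Plk1: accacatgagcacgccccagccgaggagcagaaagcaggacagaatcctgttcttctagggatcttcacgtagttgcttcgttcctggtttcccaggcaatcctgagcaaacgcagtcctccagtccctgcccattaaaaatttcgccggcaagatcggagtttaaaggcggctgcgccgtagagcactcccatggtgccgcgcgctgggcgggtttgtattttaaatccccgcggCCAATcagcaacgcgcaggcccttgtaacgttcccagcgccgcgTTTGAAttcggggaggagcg
Ccnb2: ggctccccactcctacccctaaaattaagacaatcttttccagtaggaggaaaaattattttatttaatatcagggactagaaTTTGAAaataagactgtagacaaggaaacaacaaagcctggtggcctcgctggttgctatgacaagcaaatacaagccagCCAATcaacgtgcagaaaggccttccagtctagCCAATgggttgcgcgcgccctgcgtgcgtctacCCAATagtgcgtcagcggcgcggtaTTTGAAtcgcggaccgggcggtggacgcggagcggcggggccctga
Cdc20: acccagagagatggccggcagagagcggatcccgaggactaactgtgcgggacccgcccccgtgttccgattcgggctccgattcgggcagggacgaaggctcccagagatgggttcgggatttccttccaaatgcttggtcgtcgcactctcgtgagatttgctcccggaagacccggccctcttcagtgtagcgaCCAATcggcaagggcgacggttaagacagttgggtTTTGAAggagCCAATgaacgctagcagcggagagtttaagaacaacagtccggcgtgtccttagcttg
The matches describe these windows and were not tested as binding sites.

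Totals of the 6 libraries ran from 9179607 to 16515330 counts, so that 1 count was worth 0.053 to 0.118 CPM (counts divided by the TMM-scaled library size). Log values of replicates correlated at 0.96 to 0.976, and libraries of different groups at 0.861 to 0.938. The TMM factors were 1.14 to 1.29 in the knockout and 0.877 to 0.922 in the control libraries. The Y-linked genes Ddx3y, Eif2s3y, Kdm5d and Uty were counted in all 25 libraries, and Xist had 2 counts in the 6. Alb, Ttr and the other hepatocyte markers were abundant in both groups, with summed levels of 76250, 78710 and 78730 CPM of the library total in Lats1/2 KO 1, 2 and 3 and 95640, 91160 and 85950 CPM in BL/6 AAV-Cre 1, 2 and 3.

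Markers of several other liver cells were far below the hepatocyte sums in all 6 libraries and higher in the knockout. The 23 Kupffer cell and macrophage markers summed to 1134, 3074 and 1322 CPM in the knockout libraries and 146, 406 and 289 CPM in the controls. The 21 sinusoidal endothelial markers summed to 820.1, 2229 and 899 against 200.5, 323 and 239 CPM, and the 21 stellate cell and fibroblast markers to 730.2, 1692 and 497 against 84.6, 178 and 115 CPM. For each of the 3 sums the groups did not overlap, and the exact permutation test, two-sided over 3 against 3, gave its smallest possible p of 0.1. Lats1/2 KO 2 held the highest of all 3 sums. Monocyte and lipid-associated macrophage markers reached 170, 195 and 87.2 CPM against 35.3, 74.2 and 70 CPM, with no overlap (exact permutation p = 0.1). This list shares Spp1 with the bile duct and progenitor markers. On average Spp1 made up 55.1 of 150.7 CPM in the knockout and 2.35 of 59.8 CPM in the controls. The separation of the groups leaned on this gene, and the sum without it was not tested. Neutrophil markers (51.8, 32.1 and 4.12 against 3.93, 8.17 and 7.44 CPM) and markers of T, NK and B cells (2.46, 6.17 and 3.69 against 2.43, 3.6 and 3.31 CPM) overlapped, and Ly6g, Camp and Cd79a had 0 counts in all 6. Erythroid and platelet markers summed to 20.7, 62 and 21.2 against 21.7, 9.7 and 18.1 CPM and also overlapped. Gene by gene, 22 of 23 Kupffer, 21 of 21 endothelial and 18 of 20 stellate markers tested rose, with medians on the log2 scale of 2.32, 2.01 and 2.71, while 10 of 14 monocyte markers rose. Among them were Marco and Timd4 of Kupffer cells, Stab2 and Lyve1 of sinusoidal endothelium, and Colec10 and Lum of stellate cells and fibroblasts. Without Lats1/2 KO 2, 11 of 21 endothelial and 6 of 14 monocyte markers were called. More such cells in the sort and more of this RNA per cell cannot be told apart in bulk counts. These sums differ between the same 2 groups as every list of genes that rose in the knockout, and their part in those rises was not tested.

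**Figure D1:**
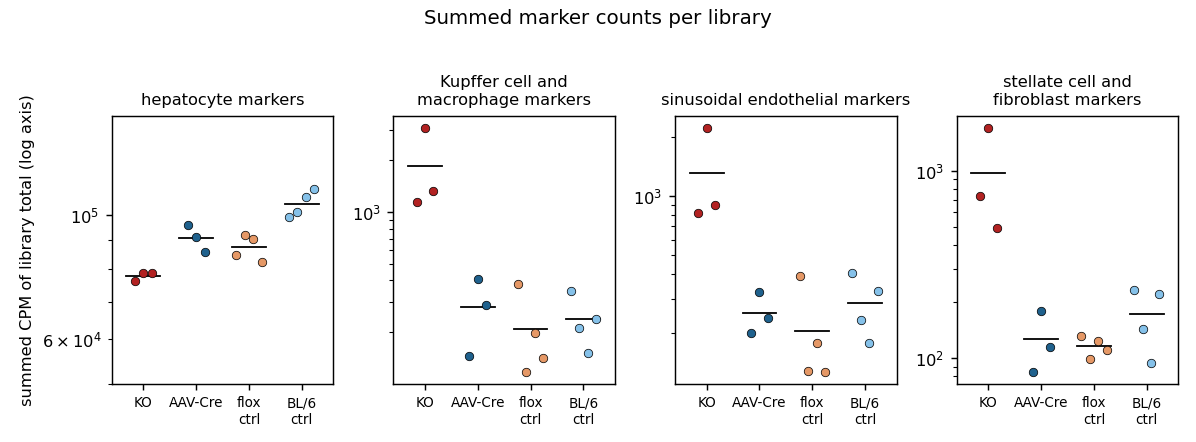
Summed CPM of the library total (log axis, 1 point per library, line at the group mean) for markers of 4 kinds of cells in the Lats1/2 KO, BL/6 AAV-Cre, Lats1/2 flox ctrl and BL/6 ctrl libraries. The 3 knockout libraries lie below the 3 AAV-Cre libraries for hepatocyte markers and above them for the other 3 sums, with Lats1/2 KO 2 the highest at 3074 CPM of Kupffer markers.

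The targeted genes were read first. Lats1 (GRCm38 chromosome 10, 7681214 to 7716460, plus strand) stood at 5.1, 4.79 and 2.97 CPM in Lats1/2 KO 1, 2 and 3 and at 13.9, 16.1 and 13.4 CPM in BL/6 AAV-Cre 1, 2 and 3. All 3 knockout values lay below the lowest control (log2 fold change -1.77, SE 0.24, edgeR adjusted p = 4.27e-06). Lats2 (GRCm38 chromosome 14, 57689662 to 57758388, minus strand), which is also a target gene of YAP, was at 7.69, 17.8 and 10.5 CPM in the knockout and 14.1, 15 and 14.2 CPM in the controls. The groups overlapped, and the difference missed the threshold (log2 fold change -0.26, 95% interval -0.71 to 0.18, edgeR adjusted p = 0.368). Without Lats1/2 KO 2, the one knockout library above the controls, it was -0.66 and called, limma voom called it at -0.53, and with library totals alone it was 0.17. The kit counts 3′ ends, and the labels do not name the exons that the floxed alleles lose, so a count outside the deleted part does not check the deletion.

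Of the genes of the coactivators themselves, Wwtr1 rose, while the call of a fall in Yap1 was lost in several fits. Yap1 had 31.2, 33.2 and 38.6 CPM in the knockout and 53.7, 44.7 and 40.3 CPM in the controls (log2 fold change -0.43, edgeR adjusted p = 0.009), a fall that was not called without Lats1/2 KO 1 (-0.36) or BL/6 AAV-Cre 1 (-0.30), or with library totals alone (-0.02), nor in a fit to only the 2 groups compared (-0.39). Wwtr1, which encodes TAZ, rose from 12.4, 14.9 and 16 CPM to 23.8, 32.6 and 24.5 CPM (log2 fold change 0.90, SE 0.20, edgeR adjusted p = 0.00136). All 3 of its knockout values lay above those of the controls.

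Known target genes of YAP and TAZ were higher in the knockout: of 20 tested, among 22 listed, 14 rose and none fell, with a median log2 fold change of 2.38 against 0.01 over all genes. Ccn2 (GRCm38 chromosome 10, 24595442 to 24598683, plus strand), a secreted matricellular protein and the best known of these targets, had 62.5, 135 and 149 CPM in the knockout libraries. In the controls it had 3.2, 2.01 and 2.14 CPM, so that the lowest knockout value was above the highest control by a wide margin (log2 fold change 5.56, SE 0.50, edgeR adjusted p = 1.11e-07). Ccn1 (GRCm38 chromosome 3, 145646976 to 145649981, minus strand), its close relative, had 122, 118 and 48.8 CPM against 13.1, 9.69 and 6.6 CPM (log2 fold change 3.30, SE 0.34, edgeR adjusted p = 4.09e-07). Lats1/2 KO 3 was the highest knockout library for Ccn2 and the lowest for Ccn1. Amotl2, a scaffold that holds YAP in the cytoplasm, stood at 95.7, 77.1 and 70.5 CPM against 10.7, 13 and 15.4 CPM (log2 fold change 2.63, SE 0.22, edgeR adjusted p = 6.19e-09). Crim1, a membrane protein that binds BMP ligands, stood at 103, 104 and 128 CPM against 18.6, 25.2 and 17.6 CPM (log2 fold change 2.45, SE 0.18, edgeR adjusted p = 8.07e-10). Ajuba, a LIM protein that binds LATS kinases, stood at 37.3, 25.9 and 32.5 CPM against 3.95, 2.84 and 3.44 CPM (log2 fold change 3.22, SE 0.34, edgeR adjusted p = 1.98e-07). Tgfb2, a TGF beta ligand, had 46 counts over the knockout libraries and 0 over the controls, and was at least 9.73-fold higher against a floor of 3 counts per group. Ankrd1, a target in many cell types, was at 2.85, 2.8 and 0.424 CPM against 0.427, 0.709 and 0.651 CPM, with Lats1/2 KO 3 no higher than the lowest control, and was not called (log2 fold change 1.71, edgeR adjusted p = 0.0761). It was called without Lats1/2 KO 3 (2.23), by DESeq2 (1.82) and with library totals alone (2.13).

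**Figure D2:**
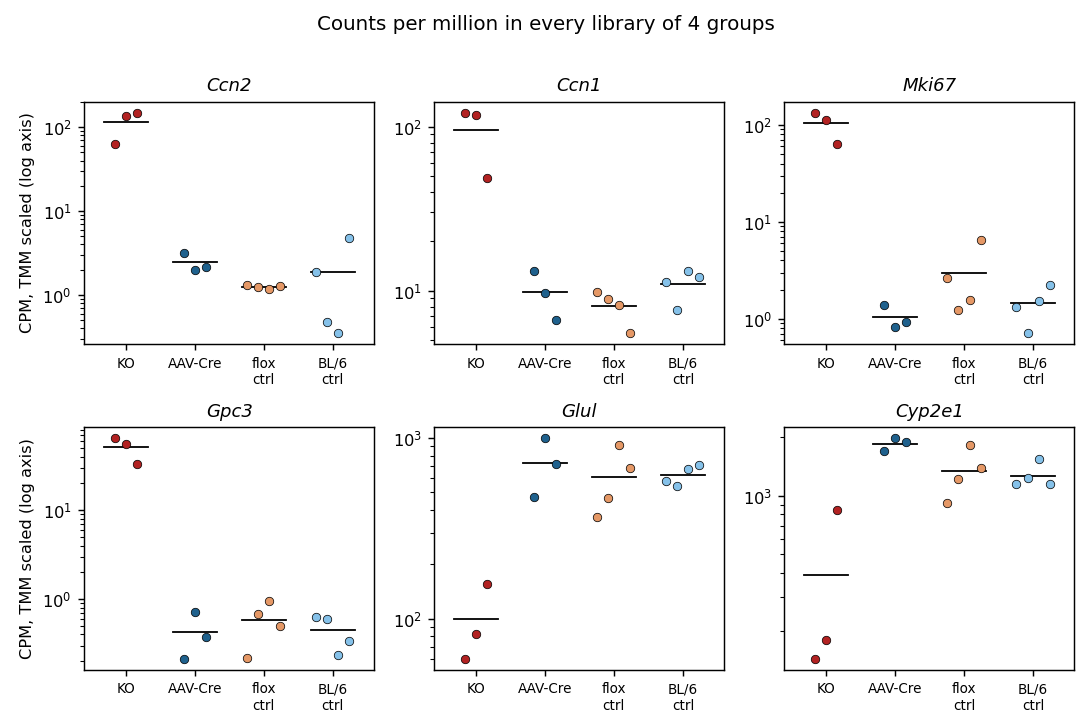
TMM-scaled CPM (log axes, 1 point per library, line at the group mean) of Ccn2, Ccn1, Mki67, Gpc3, Glul and Cyp2e1 in the Lats1/2 KO, BL/6 AAV-Cre, Lats1/2 flox ctrl and BL/6 ctrl libraries. The knockout libraries lie above all others for the first 4 genes and below all others for Glul and Cyp2e1, with Lats1/2 KO 3 nearest to the controls for Cyp2e1 at 839.8 CPM.

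Among 29 components of the Hippo pathway, 14 rose and 3 fell (median 0.45, or 0.35 with genes of very few counts at their bound). Besides Wwtr1, Amotl2 and Ajuba, those that rose included Amot, another scaffold that binds YAP, at 20.7, 18.8 and 13.5 CPM against 4.05, 4.61 and 5.02 CPM (log2 fold change 1.94, edgeR adjusted p = 1.23e-06). Map4k4, a kinase that can activate LATS, stood at 108, 96.3 and 60.7 CPM against 16.3, 17.3 and 14.7 CPM (log2 fold change 2.46, edgeR adjusted p = 2.88e-07). Tead4, a DNA-binding partner of YAP, had 45 counts against 1, a ratio of 28.6 with an exact binomial 95% interval of 4.87 to 1152. The 3 that fell were Lats1, Yap1 and Taok3, another upstream kinase.

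Of the gene lists described here, genes of G2/M and mitosis had the largest median change. All 37 genes of a list of G2/M and mitosis rose, with a median log2 fold change of 6.19 (6.12 with genes of very few counts at their bound), and the medians of Lats1/2 KO 1, 2 and 3 were 6.09, 5.82 and 5.57 above the mean of the controls. Mki67 (GRCm38 chromosome 7, 135689784 to 135716361, minus strand), a coat protein of mitotic chromosomes used as a marker of cycling cells, had 134, 114 and 64.2 CPM against 1.39, 0.827 and 0.93 CPM (log2 fold change 6.62, SE 0.53, edgeR adjusted p = 1.61e-08). Cdk1, the kinase that drives entry into mitosis, had 68.9, 61.2 and 54.5 CPM against 1.39, 1.65 and 0.744 CPM (log2 fold change 5.63, SE 0.45, edgeR adjusted p = 8.88e-09). Cenpa, the histone variant of centromeres, had 31, 33.4 and 27.1 CPM against 1.71, 2.84 and 1.58 CPM (log2 fold change 3.91, SE 0.32, edgeR adjusted p = 3.29e-09). All 3 genes were at a few CPM or less in every control library, and Lats1/2 KO 3 held the lowest of the knockout values each time. Of the genes whose promoters are printed, Plk1 stood at 72.3, 62 and 45.5 CPM against 0.427, 0.591 and 0.651 CPM, Ccnb2 at 49.7, 42.8 and 37 against 0.64, 0.591 and 0.558, and Cdc20 at 26.5, 22 and 13.7 against 0.427, 0.236 and 0.093 CPM, with log2 fold changes of 6.72, 6.15 and 6.33. Foxm1, a transcription factor of mitotic genes, had 534 counts over the knockout libraries and 2 over the controls, a ratio of 169 (exact binomial 95% interval 46.7 to 1402).

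The genes with the largest rises over the whole table also included many that act in mitosis. The 12 with the largest fold change that were well counted and did not overlap between the groups included Knl1, a kinetochore scaffold, with 944 counts against 1 (ratio 599, interval 107 to 23680), and Pbk, a mitotic kinase, with 823 against 2 (ratio 261, interval 72.0 to 2159). Hmmr, which acts at spindle poles, had 117, 96 and 69.4 CPM against 0.213, 0.355 and 0.279 CPM (log2 fold change 8.34, SE 0.81, edgeR adjusted p = 2.67e-07). The others were Diaph3, Aspm, Cenpf, Ckap2, Ccnb1, Racgap1, Knstrn, Ckap2l and Iqgap3, with log2 fold changes of 6.96 to 7.60. Lats1/2 KO 3 held the lowest of the 3 knockout values for 11 of these 12 genes, and for Pbk it was Lats1/2 KO 2.

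Genes of DNA replication rose too. Of 35 tested, 29 rose and 1 fell, with a median log2 fold change of 1.84. Mcm6, a subunit of the replicative helicase, had 15, 20.7 and 17 CPM against 1.28, 1.18 and 1.49 CPM (log2 fold change 3.72, SE 0.32, edgeR adjusted p = 6.32e-09). Rrm2, which makes deoxynucleotides, had 31.7, 28.7 and 38.4 CPM against 3.31, 1.54 and 2.51 CPM (log2 fold change 3.73, SE 0.39, edgeR adjusted p = 1.88e-07). The 1 that fell was Mcm10, a replication factor, at 15.5, 17.9 and 40.4 CPM against 97.1, 55.5 and 49.5 CPM (log2 fold change -1.44, edgeR adjusted p = 0.00798). Lats1/2 KO 3 lay nearest to the controls, and the fall was not called without Lats1/2 KO 2 (-1.25) or BL/6 AAV-Cre 1 (-1.08), or in a fit to only the 2 groups compared (-1.40).

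Genes of fetal liver and of bile duct cells rose in part. Of 12 fetal genes tested, among 18 listed, 8 rose and none fell (median 1.87). Gpc3 (GRCm38 chromosome X, 52272426 to 52613950, minus strand), a glypican of fetal liver and liver tumours, had 64.4, 55.2 and 33.2 CPM against 0.213, 0.709 and 0.372 CPM (log2 fold change 6.88, SE 0.40, edgeR adjusted p = 3.83e-11). Ly6d, a surface protein, had 16.9, 13.2 and 11.8 CPM against 0.107, 1.65 and 0.186 CPM (log2 fold change 4.49, SE 0.57, edgeR adjusted p = 2.73e-06). Afp, the fetal counterpart of albumin, reached only 2.25, 2.39 and 2.01 CPM against 0.64, 0.709 and 0.372 CPM (log2 fold change 1.95, SE 0.44, edgeR adjusted p = 0.00144). Sox9, a transcription factor of bile duct and progenitor cells, had 211, 122 and 62.3 CPM against 37.9, 56.6 and 60.3 CPM (log2 fold change 1.35, SE 0.35, edgeR adjusted p = 0.00482), and was not called without Lats1/2 KO 1 (0.84), the library with the highest value, or in a fit to only the 2 groups compared (1.39). Spp1, a secreted phosphoprotein of bile duct cells and also of macrophages, had 72.4, 43.8 and 23.1 CPM against 3.41, 2.95 and 1.49 CPM (log2 fold change 4.16, SE 0.56, edgeR adjusted p = 1.3e-05). Of 8 bile duct and progenitor markers tested, 3 rose, Sox9, Spp1 and Lgals3, with 5 called without Lats1/2 KO 3 and 2 without Lats1/2 KO 1, and Krt7, Cldn4, Cldn7, Sprr1a and Tspan8 had 0 counts in all 3 controls. The whole list of 18 summed to 367, 312 and 144 CPM in the knockout and 53.2, 77.2 and 68.4 CPM in the controls (exact p = 0.1).

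Genes of the actin cytoskeleton rose as a group, 28 of 36 tested with none lower (median 1.10). Anxa5, a phospholipid-binding annexin, had 395, 312 and 325 CPM against 41.3, 50.9 and 53.2 CPM (log2 fold change 2.83, SE 0.17, edgeR adjusted p = 3.71e-11), the second smallest p of all genes tested. Myh9, the heavy chain of non-muscle myosin, had 449, 330.2 and 220.0 CPM against 90.6, 108 and 104 CPM (log2 fold change 1.72, SE 0.17, edgeR adjusted p = 7.41e-08). Keratins and cell junction proteins split, with 7 higher and 4 lower of 17, the latter Tjp3, Cdh2, Gjb1 and Gjb2, against 4 and 4 without Lats1/2 KO 1 and 4 and 3 without Lats1/2 KO 2. Krt18, a keratin that hepatocytes also make, had 379, 221 and 171 CPM against 76.4, 113 and 125 CPM (log2 fold change 1.29, SE 0.27, edgeR adjusted p = 0.000838). Gjb2, a gap junction protein of hepatocytes, had 114, 91 and 126 CPM against 256, 257 and 255 CPM (log2 fold change -1.21, SE 0.17, edgeR adjusted p = 7.89e-06).

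Of 27 tested genes for matrix proteins and for ligands of the TGF beta family, 19 rose and 1, Col18a1, fell (median 2.21, or 2.11 with genes of very few counts at their bound). By library the medians were 1.85, 2.66 and 1.15, in the same order as the stellate marker sums of 730.2, 1692 and 497 CPM. The list shares Col1a1, Col1a2, Col3a1 and Sparc with the stellate markers, and the part of these cells in the rise was not tested. Tgfbi, a TGF beta-induced matrix protein, had 23.3, 48.3 and 14 CPM against 2.13, 6.38 and 3.44 CPM (log2 fold change 2.85, SE 0.46, edgeR adjusted p = 7.83e-05). Lamc1, a laminin chain, had 15.8, 20.5 and 10.3 CPM against 4.59, 7.8 and 4 CPM (log2 fold change 1.52, SE 0.26, edgeR adjusted p = 6.87e-05). Col1a1, the main fibrillar collagen, stood at 11.4, 14 and 6.52 CPM against 12.8, 14.4 and 14 CPM and was not called (log2 fold change -0.38, edgeR adjusted p = 0.43).

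Chemokines and their receptors showed 12 higher and 1 lower of 21 tested (median 2.25, or 1.79 at the bounds), beside the Kupffer and monocyte sums given above, whose part was not tested. Ccl9, a chemokine that attracts myeloid cells, had 393, 310.5 and 264 CPM against 52.9, 55.2 and 72.4 CPM (log2 fold change 2.42, SE 0.18, edgeR adjusted p = 8.07e-10), with little spread in either group. Cx3cr1, a receptor of monocytes and macrophages that is in the monocyte list too, had 4.24, 7.39 and 2.49 CPM against 0.32, 0.236 and 0.279 CPM (log2 fold change 4.01, SE 0.73, edgeR adjusted p = 0.000265). The gene that fell was Cxcl1, a chemokine for neutrophils, at 138, 37.8 and 5.57 CPM against 69, 474 and 565 CPM, with overlap (log2 fold change -2.62, edgeR adjusted p = 0.033), and was not called without Lats1/2 KO 2 (-2.37), Lats1/2 KO 3 (-2.07), BL/6 AAV-Cre 2 (-2.40) or BL/6 AAV-Cre 3 (-2.17). With library totals alone (-2.24), with no filter on low counts (-2.61) and in a fit to only the 2 groups compared (-2.57) it was not called either. Growth factor genes split into 10 higher and 4 lower of 28, the latter Fgfr3, Klb, Igf1 and Ghr, and Notch genes into 7 and 1 of 17. Both counts leaned on single libraries: without Lats1/2 KO 2 they were 3 and 2, and 2 and 1. Without BL/6 AAV-Cre 1 they were 5 and 3, and 4 and 1, and without BL/6 AAV-Cre 3 they were 4 and 3, and 4 and 1. For growth factors alone they were 6 and 3 without Lats1/2 KO 1. Hgf, which is made by stellate cells and is in their marker list, had 5.45, 14.7 and 3.82 CPM against 0.427, 0.473 and 0.93 CPM (log2 fold change 3.66, SE 0.63, edgeR adjusted p = 8.54e-05). Ghr, the growth hormone receptor of hepatocytes, had 202, 175 and 298 CPM against 484, 454 and 439 CPM (log2 fold change -1.03, SE 0.18, edgeR adjusted p = 0.000112). Hes6, of the HES family and the 1 Notch list gene that fell, had 39.8, 32.6 and 57 CPM against 178, 113 and 142 CPM (log2 fold change -1.74, SE 0.23, edgeR adjusted p = 3.12e-06).

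**Figure D3:**
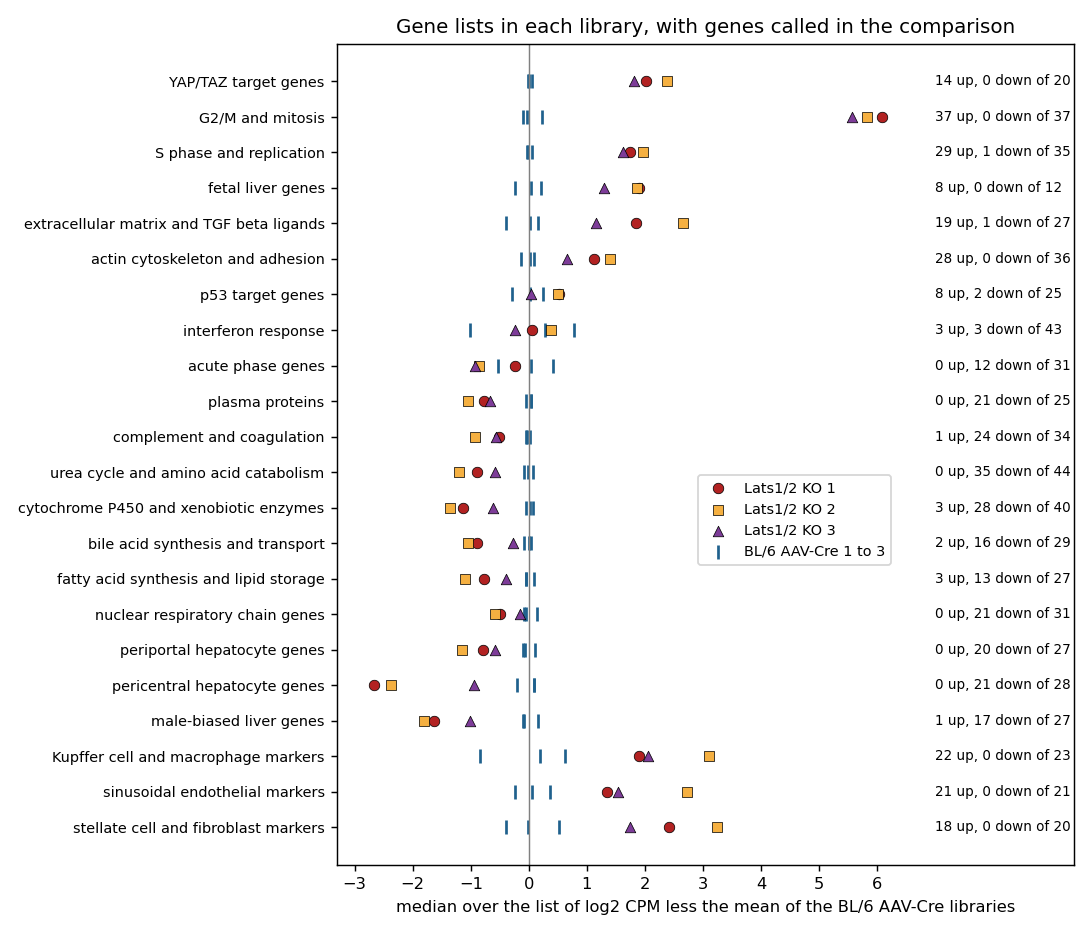
Median over each gene list of the log2 CPM less the mean of the BL/6 AAV-Cre libraries, for each Lats1/2 KO library (coloured symbols) and each BL/6 AAV-Cre library (blue ticks), with the number of genes called higher and lower at the right. Cell division genes lie highest, and pericentral hepatocyte genes lie at -2.66, -2.37 and -0.95, with Lats1/2 KO 3 the nearest to the controls.

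Genes that hepatocytes use for their work in the body were lower in the knockout. Of 25 genes of plasma proteins 21 fell and none rose (median -0.84), and of 34 genes of complement and coagulation 24 fell and 1 rose (median -0.63). Scaled by library totals alone, the plasma proteins showed 14 lower and 1 higher, and complement and coagulation 11 lower and 3 higher (median -0.23). Ttr, the thyroxine and retinol carrier, stood at 3009.5, 2368 and 4196 CPM against 9266, 8566 and 9859 CPM (log2 fold change -1.53, SE 0.18, edgeR adjusted p = 8.38e-07). Apoa4, an apolipoprotein, stood at 2.51, 2.94 and 2.81 CPM against 31.9, 21.9 and 22.6 CPM (log2 fold change -3.20, SE 0.43, edgeR adjusted p = 9.87e-06). Alb, albumin, stood at 35676, 36086 and 36522 CPM against 57973, 51140 and 47575 CPM (log2 fold change -0.53, SE 0.17, edgeR adjusted p = 0.0171), and this fall was not called without Lats1/2 KO 1 (-0.52), Lats1/2 KO 2 (-0.53) or BL/6 AAV-Cre 1 (-0.45), or with library totals alone (-0.12), nor in a fit to only the 2 groups compared (-0.49). The 1 complement gene that rose was Mbl2, a lectin that starts the complement cascade, at 1240, 1040.5 and 950.1 CPM against 725, 675 and 854 CPM (log2 fold change 0.52, edgeR adjusted p = 0.0422). This rise was not called without Lats1/2 KO 1 or 2 or BL/6 AAV-Cre 1 or 2, with values of 0.41 to 0.55. Cpb2, an inhibitor of clot breakdown, had the smallest p of the list at 163, 122 and 189.7 CPM against 409, 465 and 392 CPM (log2 fold change -1.42, SE 0.17, edgeR adjusted p = 1.22e-06).

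Enzymes of nitrogen and drug metabolism fell together. Of 44 genes of the urea cycle and of amino acid breakdown, 35 fell and none rose (median -0.90). With library totals alone 25 fell and 1 rose (median -0.51). Asl, which splits argininosuccinate, had 56.3, 48.9 and 110.2 CPM against 294, 254 and 284 CPM (log2 fold change -1.95, SE 0.20, edgeR adjusted p = 1.11e-07). Arg1, which releases urea, had 625, 516 and 710.5 CPM against 1650, 1544 and 1809.7 CPM (log2 fold change -1.43, SE 0.16, edgeR adjusted p = 3.07e-07). Of 40 cytochrome P450 and xenobiotic genes 28 fell and 3 rose (library medians of -1.14, -1.35 and -0.61), the latter Gstm1, Sult1a1 and Cyp2a12. With library totals alone 24 of these 40 fell and 5 rose. Por, the reductase that supplies electrons to all microsomal P450 enzymes, had 47.8, 55.3 and 94.9 CPM against 228, 239.8 and 242 CPM (log2 fold change -1.84, SE 0.23, edgeR adjusted p = 2.37e-06). Cyp4v3, with the smallest p of the list, had 185, 155 and 206 CPM against 602, 458 and 501 CPM (log2 fold change -1.52, SE 0.13, edgeR adjusted p = 1.12e-08).

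Lipid and bile acid genes fell in part. Among 29 enzymes and transporters of bile acids, 16 fell and 2 rose (median -0.67). The 2 that rose were Abcc4, an export pump of the basolateral membrane, and Slc51b, a subunit of a bile acid exporter there. Slc10a1, the main uptake transporter, had 49.9, 51.6 and 117 CPM against 286, 225 and 233 CPM (log2 fold change -1.76, SE 0.27, edgeR adjusted p = 3.57e-05). Cyp7a1, the first and limiting enzyme of the pathway, had 4.58, 11.6 and 90.5 CPM against 124, 85.9 and 64.9 CPM, with Lats1/2 KO 3 inside the control range, and was not called (log2 fold change -1.35, edgeR adjusted p = 0.189). Without that library its log2 fold change was -3.48 and called, as it was by limma voom (-3.01). Fatty acid synthesis and storage showed 13 lower and 3 higher (Scd2, Cd36 and Fabp4) of 27, cholesterol synthesis and uptake 14 lower and none higher of 25, fatty acid oxidation 17 lower and 3 higher (Acot1, Acot2 and Vnn1) of 34, and glucose metabolism 14 lower and 6 higher of 37. With library totals alone 10 of the bile acid list fell, 7 of fatty acid synthesis, 5 of cholesterol synthesis and 6 of oxidation, where 5 rose, and the glucose list turned to 9 higher and 7 lower. Fasn, fatty acid synthase, had 148, 99 and 128 CPM against 328, 359 and 467 CPM (log2 fold change -1.62, SE 0.25, edgeR adjusted p = 2.45e-05). Cd36, a fatty acid transporter that endothelial cells and macrophages also make, rose, at 90.3, 95.9 and 102 CPM against 12.3, 17.7 and 14.9 CPM (log2 fold change 2.69, SE 0.21, edgeR adjusted p = 2.36e-09). Pkm, the pyruvate kinase of fetal and dividing cells, rose too, at 21.4, 40.3 and 17.5 CPM against 1.81, 4.49 and 3.53 CPM (log2 fold change 3.01, SE 0.42, edgeR adjusted p = 1.43e-05), with Lats1/2 KO 2 the highest, as it was for the Kupffer sum. Without Lats1/2 KO 2 the lower genes numbered 9 for cholesterol, 7 for oxidation and 7 for glucose. Those of oxidation numbered 10 without Lats1/2 KO 1, and 11 without BL/6 AAV-Cre 1 or 3.

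Position in the liver lobule was read from genes of the central and the portal end. Hepatocytes near the central vein make Glul, glutamine synthetase, and Cyp2e1 under the control of Wnt signals, and those near the portal vein make urea and glucose. Of 28 pericentral genes 21 fell and none rose (median -1.71), and of 27 periportal genes 20 fell and none rose (median -0.85). Glul (GRCm38 chromosome 1, 153899944 to 153909723, plus strand) had 60.2, 82.7 and 155 CPM in the knockout and 473, 995 and 721 CPM in the controls (log2 fold change -2.88, SE 0.39, edgeR adjusted p = 1.15e-05). Cyp2e1, which oxidises ethanol and paracetamol, had 144, 181 and 839.8 CPM against 1696, 1974 and 1899 CPM (log2 fold change -2.26, SE 0.49, edgeR adjusted p = 0.00136), not called in a fit to only the 2 groups compared (-2.22). Lgr5, a Wnt pathway receptor of the innermost pericentral cells, had 0.346, 0.274 and 0.583 CPM against 3.95, 6.03 and 3.91 CPM (log2 fold change -3.45, SE 0.45, edgeR adjusted p = 2.79e-06). No knockout value of these 3 genes reached the control range, and Lats1/2 KO 3 was the highest of the 3 each time. The library medians of the pericentral list, -2.66, -2.37 and -0.95, differed more among the knockout libraries than those of the periportal list, -0.80, -1.16 and -0.59, a difference that was not tested. Agt, angiotensinogen, stood for the portal side at 236, 197 and 272 CPM against 648, 622 and 612 CPM (log2 fold change -1.42, SE 0.17, edgeR adjusted p = 6.09e-07).

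The smallest p of all genes tested belonged to Rdh16f2, a retinol dehydrogenase gene named after its values were seen, at 8.47, 7.39 and 8 CPM in the knockout and 77.6, 72 and 79.9 CPM in the controls (log2 fold change -3.27, SE 0.17, edgeR adjusted p = 1.05e-12). Its replicates were close together in both groups. The largest falls of the table were in secreted pheromone carriers, acute phase proteins and P450 enzymes. Of 12 well counted genes with the largest fall and no overlap, 5 were major urinary protein genes, 3 were serum amyloid A genes and 2 were Cyp2c genes, beside Mmd2 and Slc1a2, a glutamate transporter of pericentral hepatocytes. Mup9 had 1.3, 2.67 and 9.54 CPM against 163, 351 and 188 CPM (log2 fold change -5.62, SE 0.81, edgeR adjusted p = 3.83e-05). Mup17 had 11.6, 12.1 and 289.6 CPM against 1449, 2574 and 2049.9 CPM (log2 fold change -4.27, SE 1.17, edgeR adjusted p = 0.00825), a call lost in a fit to only the 2 groups compared (-4.24). Cyp2c29, a steroid and drug oxidase, had 19, 31.7 and 124 CPM against 607, 779.8 and 856 CPM (log2 fold change -3.68, SE 0.58, edgeR adjusted p = 8.08e-05). Lats1/2 KO 3 kept more of each of these transcripts than the other 2. The Mup, Saa and Cyp2c genes have near-identical copies, and the labels do not name the counting tool, so the split between single members is uncertain. Of 27 genes known to be higher in male liver, most under the control of growth hormone pulses, 17 fell and 1 rose (median -1.57), the riser being Selenbp2. Of 12 genes higher in female liver 2 fell, Cyp2c40 and Cyp17a1, and 1 rose, Cd36.

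Acute phase genes, which the liver makes during inflammation, fell in 12 of 31 with none higher (median -0.73), and the spread was wide on both sides. Saa1 had 139.6, 49.4 and 28 CPM in the knockout and 422, 3481 and 840.1 CPM in the controls (log2 fold change -4.45, SE 1.18, edgeR adjusted p = 0.00685), and Saa2 53.6, 26.8 and 9.44 CPM against 154, 2139 and 349 CPM (log2 fold change -4.89, SE 1.46, edgeR adjusted p = 0.0142, or -4.85 and not called in a fit to only the 2 groups compared). BL/6 AAV-Cre 2 held the highest value of both, and Saa2 was not called without it (-3.08) or without Lats1/2 KO 2 (-4.82). The list had 5 genes called lower without either library. Hpx, the heme scavenger, had 3994, 2532 and 2192 CPM against 4288, 9122 and 6733 CPM (log2 fold change -1.21, SE 0.28, edgeR adjusted p = 0.00192).

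Transcription factors of hepatocytes fell in 10 of 28 and rose in 2 (median -0.57), with 5 lower and none higher without Lats1/2 KO 2. The count moved with the scaling, to 1 lower and 2 higher with library totals alone (median -0.17). Cebpa had 104, 103 and 196 CPM against 295, 219 and 209 CPM (log2 fold change -0.84, SE 0.20, edgeR adjusted p = 0.00213, or -0.44 and not called with library totals alone, nor in a fit to only the 2 groups compared at -0.80), and Foxa3 50.8, 48.4 and 58.6 CPM against 95.5, 91.2 and 87.8 CPM (log2 fold change -0.80, SE 0.17, edgeR adjusted p = 0.000706). The 2 that rose were Foxa1 and Gata4, pioneer factors of liver development. Of 23 clock genes 6 fell and 2, Clock and Npas2, rose, beside 15.7% and 19.6% of all genes. The falls numbered 3 without Lats1/2 KO 2 or BL/6 AAV-Cre 1 and 10 without Lats1/2 KO 3, and 3 with library totals alone. Npas2, a partner of BMAL1, had 4.15, 3.35 and 2.07 CPM against 0.32, 0.355 and 0.279 CPM (log2 fold change 3.28, SE 0.63, edgeR adjusted p = 0.000299), and Per2, a repressor of the clock, 3.89, 3.69 and 5.14 CPM against 18.1, 13.5 and 15.6 CPM (log2 fold change -1.88, SE 0.44, edgeR adjusted p = 0.0022). The labels do not name the hour of sampling.

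Genes of the respiratory chain fell slightly with TMM scaling, 21 of 31 with none higher (median -0.42), but none fell and 1 rose with library totals alone (median -0.01). The count also moved with single libraries, from 5 without BL/6 AAV-Cre 1 to 24 without Lats1/2 KO 3, with 6 without Lats1/2 KO 2, 8 without Lats1/2 KO 1 and 12 without BL/6 AAV-Cre 3. Of 8 mitochondrially encoded mRNAs tested 3, mt-Nd1, mt-Nd2 and mt-Co1, fell (median -0.46), and 0 with library totals alone. As a share of all counts they were 11.4%, 10.5% and 11.4% in the knockout and 12.9%, 10.5% and 11% in the controls, and the groups overlapped (exact permutation p = 0.9). Of 39 cytosolic ribosomal protein genes 2, Rpl22 and Rpl27, fell with TMM scaling and 15 rose with library totals alone, so their direction turned with the scaling. Chaperones of the endoplasmic reticulum fell in 8 of 25 with none higher (median -0.53), but with library totals alone none fell and 2 rose, and without Lats1/2 KO 2 or without BL/6 AAV-Cre 1, 4 fell.

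Few genes were called between the possible controls. The floxed mice without virus could serve as controls of the knockout in place of the virus-treated BL/6 mice, and the 2 control groups were compared directly. Between Lats1/2 flox ctrl and BL/6 AAV-Cre 16 genes were called, 4 higher and 12 lower in the floxed controls, or 0.123% of the genes tested, with 972 genes at an unadjusted p under 0.05. Against the floxed controls, 20.6% of the genes were higher and 17.4% lower in the knockout, beside 19.6% and 15.7% against virus-treated BL/6. The 2 comparisons share the knockout libraries. For YAP and TAZ targets the counts were 16 and 14 higher, for the G2/M list 37 and 37, for plasma proteins 23 and 21 lower, and for pericentral genes 19 and 21 lower. Called genes between the controls are sensitive to the fit: of the 16, DESeq2 called all 16, limma voom 14, and a fit to only the 2 groups 1. Without BL/6 AAV-Cre 3, 3 genes were called in all, and without BL/6 AAV-Cre 1, 39. Without BL/6 AAV-Cre 2, Lats1/2 flox ctrl 1 or Lats1/2 flox ctrl 3, 9 were called.

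With the floxed controls some lists gave other counts, a difference tested only gene by gene between the controls. Genes that p53 switches on were 8 higher and 2 lower, Trp53inp1 and Ei24, of 25 against virus-treated BL/6 (median 0.26) and 16 higher and 1 lower against the floxed controls (median 1.09). With library totals alone the count against virus-treated BL/6 was 14 higher and 1 lower (median 0.67). The count against the floxed controls is with TMM scaling, so these 2 counts cannot be set against each other. Mdm2, the ligase that degrades p53 and is itself its target, had 51.9, 42.3 and 40.3 CPM in the knockout and 34.3, 29.1 and 55.6 CPM in virus-treated BL/6, with overlap (log2 fold change 0.17, edgeR adjusted p = 0.5). The value was -0.01 without BL/6 AAV-Cre 2, and was called at 0.50 without BL/6 AAV-Cre 3 and at 0.58 with library totals alone. The floxed controls held 16.2 to 22.3 CPM and untreated BL/6 mice 23.8 to 25.5 CPM. Mdm2 was lower in the floxed than in the virus-treated controls (log2 fold change -1.05, edgeR adjusted p = 0.00743). This difference was not called without BL/6 AAV-Cre 3 (-0.73) or in a fit to only these 2 control groups (-1.06). The knockout was higher than the floxed controls (1.23, edgeR adjusted p = 6.74e-06). Ccng1, a cyclin under p53, gave the same picture: 29, 28 and 28.5 CPM and 21.7, 26.5 and 32.9 CPM with the virus, 13.1 to 17.3 CPM in the floxed controls and 11.3 to 14.4 CPM in untreated BL/6 mice. Its difference between the controls was -0.85 (edgeR adjusted p = 0.012). That call was lost without BL/6 AAV-Cre 2 (-0.86) or BL/6 AAV-Cre 3 (-0.68), and in a fit to only these 2 control groups (-0.86). The log2 fold change of Ccng1 in the knockout against virus-treated BL/6 was 0.07 (edgeR adjusted p = 0.75). It was -0.06 without BL/6 AAV-Cre 1 and called at 0.48 with library totals alone. For Mdm2 and Ccng1 the libraries of both virus-treated groups lay above those of the floxed controls and untreated BL/6 mice. The ApoYap Dox libraries, from mice without the virus, held Mdm2 at 31.6 to 43.6 CPM, inside the range of the virus-treated groups. They held Ccng1 at 15.4 to 21.6 CPM, below the lowest library of those groups. Their own controls, the ApoYap ctrl libraries, lay below ApoYap Dox for both genes. In ApoYap ctrl, Mdm2 was at 19.5 to 22.8 CPM and Ccng1 at 11.2 to 15.2 CPM.

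Other p53 targets had other patterns. Cdkn1a, the cell cycle inhibitor p21, had 466, 413 and 261 CPM in the knockout, 130.2, 189 and 278 CPM in virus-treated BL/6, 36.3 to 187 CPM in the floxed controls and 13.1 to 24.3 CPM in untreated BL/6. It was not called in the knockout against virus-treated BL/6 (log2 fold change 0.93, SE 0.50, edgeR adjusted p = 0.155), but was with limma voom (1.06) and with library totals alone (1.35), and was called against the floxed controls (2.24, edgeR adjusted p = 0.000897). Phlda3, an inhibitor of AKT, had 8.64, 10.8 and 5.67 CPM against 0.427, 0.827 and 0.837 CPM (log2 fold change 3.56, SE 0.49, edgeR adjusted p = 6.08e-06). Trp53inp1, a cofactor of p53, had 52.2, 41.9 and 50.4 CPM against 105, 128 and 149 CPM (log2 fold change -1.40, SE 0.37, edgeR adjusted p = 0.00588), and the floxed controls spread from 27.8 to 92.8 CPM. So Phlda3 was highest in the knockout and Trp53inp1 in virus-treated BL/6 mice. Nfe2l2, which encodes the antioxidant regulator NRF2, was highest in the knockout and intermediate in virus-treated BL/6, with 251, 232 and 200.4 CPM in the knockout, 129, 132 and 161 CPM in virus-treated BL/6 and 84.2 to 94.1 CPM in the floxed controls. It rose against both, by 0.70 and 1.34 on the log2 scale (edgeR adjusted p = 5.52e-05 and 1.65e-09), and differed between the controls (-0.64, edgeR adjusted p = 0.00743). The difference between the controls was not called without BL/6 AAV-Cre 3 (-0.53) or in a fit to only these 2 control groups (-0.655).

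**Figure D4:**
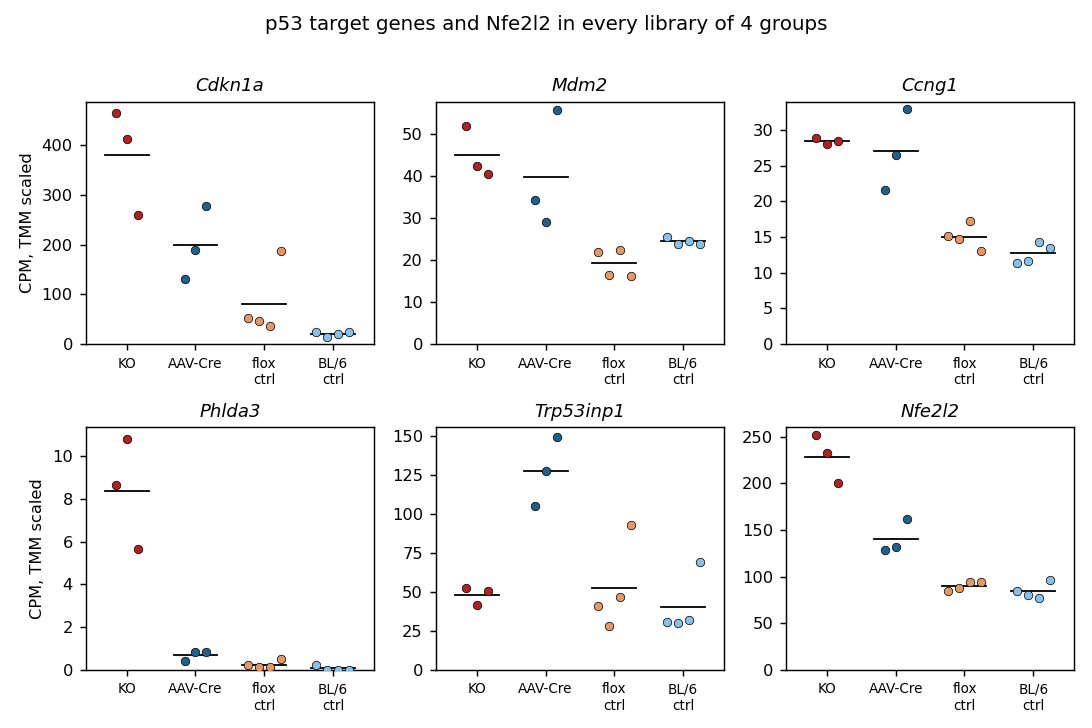
TMM-scaled CPM (linear axes from 0, 1 point per library, line at the group mean) of Cdkn1a, Mdm2, Ccng1, Phlda3, Trp53inp1 and Nfe2l2 in the Lats1/2 KO, BL/6 AAV-Cre, Lats1/2 flox ctrl and BL/6 ctrl libraries. For Mdm2 and Ccng1 the knockout and AAV-Cre libraries overlap and all lie above both untreated groups, and for Nfe2l2 the knockout libraries, at 251, 232 and 200.4 CPM, lie above all others.

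Interferon genes were 3 higher (Ifit2, Oas1a and Gbp2) and 3 lower (Oasl1, Ifi27 and Iigp1) of 43 against virus-treated BL/6 (median -0.11) and 15 higher and 1 lower against the floxed controls (median 0.64). The virus-treated BL/6 libraries spread widely, with list medians of -1.02, 0.77 and 0.28 around their mean, against 0.06, 0.39 and -0.23 in the knockout. Without BL/6 AAV-Cre 1 none rose and 10 fell, without BL/6 AAV-Cre 2, 8 rose and 2 fell, without Lats1/2 KO 2 none rose and 3 fell, and without Lats1/2 KO 3, 6 rose and 3 fell. With library totals alone 8 rose and 1 fell. Ifi27 had 80.1, 68.9 and 65.1 CPM in the knockout and 111, 196 and 254 CPM in the controls (log2 fold change -1.39, SE 0.26, edgeR adjusted p = 0.00025). Isg15, a ubiquitin-like protein, had 30, 38 and 20.5 CPM against 10.7, 80.8 and 36.2 CPM and no call (log2 fold change -0.53, edgeR adjusted p = 0.451), and its sign turned to 0.32 without BL/6 AAV-Cre 2. Immediate early genes, which tissue dissociation can switch on, were 4 higher (Dusp2, Klf6, Myc and Rhob) and 1 lower (Hspa1b) of 29, and 12 higher and 2 lower against the floxed controls. Their library medians were 0.96, 0.46 and -0.88 in the knockout, so that Lats1/2 KO 1 and 3 lay on opposite sides of the controls, and 1 rose without Lats1/2 KO 1, without Lats1/2 KO 2 or without BL/6 AAV-Cre 1, and 2 without BL/6 AAV-Cre 2 or 3. Klf6, a zinc finger factor of this class, had 180.3, 122 and 27.7 CPM against 13.9, 32.6 and 39.2 CPM, with Lats1/2 KO 3 inside the control range (log2 fold change 1.94, SE 0.51, edgeR adjusted p = 0.00624), and the call was lost in a fit to only the 2 groups compared (1.98). Antioxidant genes under NRF2 showed 5 higher and 6 lower of 24 (20.8% and 25%). Genes of the amino acid stress factor ATF4 showed 6 higher and 3 lower of 24 (25% and 12.5%). Antigen presentation genes were 3 higher (H2-Ab1, H2-Eb1 and Ciita) and 3 lower (H2-K1, H2-T23 and B2m) of 20, or 15% each way. Of all genes tested, 19.6% were higher and 15.7% lower. With library totals alone the counts of these 3 lists were 10 and 2, 7 and 3, and 8 and 0. The antigen presentation genes that rose numbered 1 without Lats1/2 KO 2, Lats1/2 KO 3, BL/6 AAV-Cre 1 or BL/6 AAV-Cre 3, and 1 fell without Lats1/2 KO 1.

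The untreated floxed and untreated BL/6 mice were compared in libraries that the main comparison does not use. Strain and the floxed alleles differ together between them, the labels name no batch, and the source of the differences was not tested. Between Lats1/2 flox ctrl and BL/6 ctrl, without virus, 535 genes were called, 4.12% of those tested. Of these 535, 156 were also called between knockout and virus-treated BL/6. That is 29.2% of the 535, below the 35.3% of all tested genes called there, and 3.4% of the main calls. Of the 156, 85 went in the same direction and 71 in the opposite one. The 535 calls were 409 higher and 126 lower, from 168 and 34 without BL/6 ctrl 4 to 335 higher without Lats1/2 flox ctrl 4. Leaving out BL/6 ctrl 1 gave 248 and 57, and leaving out Lats1/2 flox ctrl 3 gave 241 and 54. Between BL/6 AAV-Cre and BL/6 ctrl 39 genes were called, or 0.301%.

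Many calls between the controls lay on the chromosome of Lats2. Of the 16 genes called between Lats1/2 flox ctrl and BL/6 AAV-Cre, 9 lie on chromosome 14, which holds 431 of 12742 tested genes with a position (3.38%). In the 10 Mb before Lats2 (at lower coordinates) on that chromosome, 17 of 96 tested genes (17.7%) were called between untreated floxed and untreated BL/6 mice. In the other windows of it the share was 3.28% to 7.14%. Around Lats1 on chromosome 10 the share was 0% to 10.5% in windows of 19 to 524 genes. These windows, and the genes named from them, were chosen after the values were seen. Of the 17 genes 11 were also called in the knockout against virus-treated BL/6, and 9 of these in the same direction, where 38 of all 96 genes of that window (39.6%) and 35.3% of all genes tested were called. Of the 4583 calls of the main comparison, 180 were on chromosome 14. The other 4403 are a count without a new fit.

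Cebpe, a granulocyte factor of the C/EBP family, lies 3.05 Mb before Lats2 and had 0 counts in the 3 knockout libraries. Virus-treated BL/6 libraries had 5.34, 4.49 and 4.74 CPM, or 139 counts, so it was at least 73.0-fold lower in the knockout against a floor of 3 counts per group. The floxed controls held 0 to 0.11 CPM and untreated BL/6 mice 2.2 to 3.77 CPM. Ppp1r3e, a glycogen-targeting subunit of protein phosphatase, had 0.0864, 0.41 and 0.318 CPM in the knockout and 3.84, 4.25 and 2.14 CPM in the controls (log2 fold change -3.53, SE 0.47, edgeR adjusted p = 3.88e-06), and 0.219 to 0.788 CPM in the floxed controls. In both genes the floxed mice were low with and without the virus. Rab2b, a small GTPase, was the reverse, at 6.14, 4.86 and 4.72 CPM against 1.6, 2.13 and 1.49 CPM (log2 fold change 1.59, SE 0.29, edgeR adjusted p = 0.000152) and 3.81 to 5.7 CPM in the floxed controls. Nuggc, a nuclear GTPase 7.84 Mb after Lats2, had 52 counts in the knockout and 1 in the controls, a ratio of 33.0 (exact binomial 95% interval 5.67 to 1328). It was counted in all floxed controls, at 0.987 to 4.83 CPM, and had 0 counts in untreated BL/6. Spryd7 and Nudt18, on the same chromosome, had log2 fold changes of -1.35 and 1.47 in the knockout. Between untreated floxed and untreated BL/6 mice they were -0.83 and 1.04. Ajuba, the YAP target, lies 3.18 Mb before Lats2 and was lower in the floxed controls, at 0.11 to 1.93 CPM, than in untreated BL/6, at 4.71 to 7.04 CPM (log2 fold change -2.30, edgeR adjusted p = 0.00124). Its rise in the knockout was 4.74 on the log2 scale against the floxed controls and 3.22 against virus-treated BL/6.

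**Figure D5:**
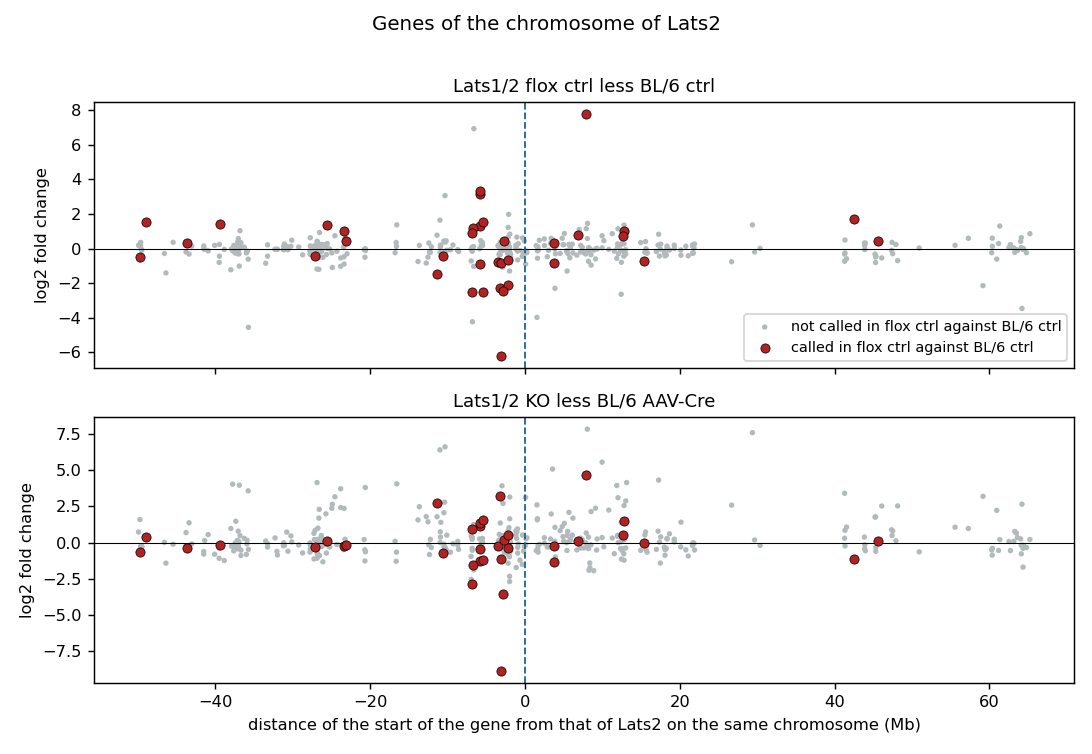
Log2 fold change of the tested genes of the chromosome that holds Lats2 against the distance of their start from that of Lats2 (Mb), between Lats1/2 flox ctrl and BL/6 ctrl (top) and between Lats1/2 KO and BL/6 AAV-Cre (bottom). Genes called between Lats1/2 flox ctrl and BL/6 ctrl are in red. Red points gather in the 10 Mb before Lats2 (17 of 96 genes), and fitted values of genes with 0 counts in a group, such as Cebpe and Nuggc, depend on the prior count.

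The knockout libraries differed among themselves in how far they lay from the controls. Among the 2544 genes that rose, Lats1/2 KO 2 was the farthest of the 3 from the controls for 1686, Lats1/2 KO 1 for 700 and Lats1/2 KO 3 for 158, and Lats1/2 KO 3 was the nearest for 1559. Among the 2039 that fell, Lats1/2 KO 2 was the farthest for 1296 and Lats1/2 KO 3 the nearest for 1526. Lats1/2 KO 2 also had the largest Kupffer, endothelial and stellate marker sums, 3074 CPM for Kupffer cells and macrophages, whose part in this order was not tested. The neutrophil and bile duct marker sums were largest in Lats1/2 KO 1, at 51.8 and 367 CPM. Of the targeted genes, Lats1 was lowest in Lats1/2 KO 3, the library nearest to the controls, and Lats2 was lowest in Lats1/2 KO 1. The G2/M and pericentral lists were farthest from the controls in Lats1/2 KO 1, and Ccn2 was highest in Lats1/2 KO 3.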

How the data were processed

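The deposited table holds raw counts per gene from the authors, whole numbers for 25 libraries of sorted mouse hepatocytes made with the QuantSeq 3′ mRNA kit (FWD), per the labels' protocols. Per the submitters' processing notes, FastQC, cutadapt and STAR 2.6.1d were used, with mm10 and GRCm38 as genome names. For the counting tool, its annotation and its strand setting: not given in the sources used here. Samples were grouped by their labels. Genes with a count of at least 10 in enough libraries and a total of at least 15 (filterByExpr) were scaled by TMM and tested with edgeR 4.0.16 (R 4.3.3), robust quasi-likelihood fit to all 25 libraries in 7 groups, with Benjamini-Hochberg adjustment at 0.05. CPM values are TMM scaled, and marker sums are of the library total. Intervals of low counts are exact binomial at 95% and, like the floor of 3 counts, cover counting error only. DESeq2 1.42.0 and limma 3.58.1 (voom), other scalings and filters, a replicate block and leaving out each library served as alternatives. Gene positions come from GENCODE M21.

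Genes were named by rule: the 12 higher and 12 lower called genes with the largest fold change whose groups did not overlap, at a mean log2 CPM of 2 or more, up to 4 members of each of 47 lists by smallest p, the 6 each way between the 2 controls, and 20 fixed genes. Others are marked or were chosen after their values were seen. The members and lists were chosen with earlier results of these data known. Lists were described by counts and medians, with no set test.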

Additional observations from a re-analysis of the deposited data

Results flagged for a closer look

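In the BL/6 ctrl group the summed CPM of monocyte and lipid-associated macrophage markers was 175.3 in BL/6 ctrl 1 and 52.92 to 67.31 in the other 3 libraries, a gap of 0.882 of the group's range, above Dixon's limit for 4 samples. In the Lats1/2 flox ctrl group, Lats2 stood at 13.69 CPM in Lats1/2 flox ctrl 3 and at 12.94 to 13.05 CPM in the other 3, a gap of 0.853. Among 24 groups of values examined these 2 passed, and chance alone passes about 1 in 20.

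The change from untreated to virus-treated libraries differed between floxed and BL/6 mice for 3167 genes by edgeR's test of the difference itself (Lats1/2 KO less Lats1/2 flox ctrl, less BL/6 AAV-Cre less BL/6 ctrl). It was higher in the floxed mice for 1683 genes and lower for 1484, and 2679 of these genes were also called between Lats1/2 KO and BL/6 AAV-Cre, which shares libraries with it.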

How the results depend on the processing

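Every gene called in both the reported fit and an alternative kept its direction, for example 4291 genes with DESeq2, 4271 with RLE scaling, 3201 with library totals alone and 2924 without Lats1/2 KO 2. The fits share most or all of their counts, and genes called in only 1 of them are left out. The shared direction therefore does not measure how stable the calls are. The calls between Lats1/2 KO and BL/6 AAV-Cre, 2544 higher and 2039 lower, became 5040 and 657 with library totals alone, 1689 and 1250 at an adjusted p under 0.01, and 1514 and 481 with glmTreat against a fold of 1.5. A log2 fold change of at least 1 left 2499 of the calls, of which 571 were lower and the rest higher. Leaving out single libraries gave 1710 to 2678 higher and 1255 to 2193 lower. The calls between Lats1/2 flox ctrl and BL/6 AAV-Cre, 16, became 54 with DESeq2, 40 with limma voom and 26 with library totals alone. They became 7 at 10 CPM or more in 3 libraries, 1 with only the groups compared and 3 to 39 without single libraries. Of the 16, 7 lie outside chromosome 14, a count without a new fit. Between Lats1/2 flox ctrl and BL/6 ctrl, DESeq2 called 240 lower, limma voom 806 higher and 382 lower, and a fit to only these groups 316 lower, with 168 to 335 higher and 34 to 100 lower without single libraries. Net of the untreated groups, library totals alone gave 3483 higher and 451 lower. The cause of these shifts was not tested.

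Correlations of the deviations of same-numbered libraries were 0.0348, 0.352 and -0.00761, and those of other pairs -0.258 to 0.228. With so few libraries these values cannot decide whether replicate numbers pair the samples. With the replicate block the calls were 2163 higher and 1516 lower in the knockout, 0 between Lats1/2 flox ctrl and BL/6 AAV-Cre, and 341 lower between Lats1/2 flox ctrl and BL/6 ctrl. Of 76 called genes given with values, the block ended the calls of 12 (Alb, Cxcl1, Cyp2e1, Klf6, Krt18, Mbl2, Mcm10, Mup17, Saa1, Saa2, Sox9 and Yap1), and a fit to only the 2 groups compared, without the block, those of 10.

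With TMM scaled CPM the ratio of knockout to control was 0.647 for hepatocyte markers, 0.98 for T, NK and B cell markers and 0.732 for mitochondrially encoded mRNAs. Without single libraries the ratios ran from 0.989 to 1.59 for T, NK and B cell markers and from 0.928 to 1.03 for mitochondrially encoded mRNAs. Among the log2 fold changes of single genes the sign turned for Isg15 (-0.987 to 0.323 without single libraries), Mdm2 (-0.00701 to 0.499) and Ccng1 (-0.0625 to 0.244), and with library totals alone for Lats2 (0.169) and Col1a1 (0.0491). Depth limits genes under about 1 CPM, where 1 count was worth 0.053 to 0.118 CPM.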
